A study of Mus musculus with 2 samples.

Results

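DNA damage response and repair genes were examined in liver macrophages of WT and FABP7 KO mice with MC38 liver metastases. The 49 genes were taken from a list of symbols, with no threshold on their values, and all 49 were found among the 22322 genes of the expression table. They were divided into 7 pathways from general knowledge, with 13 genes of homologous recombination, 10 Fanconi anemia genes, 3 of mismatch repair, 8 of base excision and single-strand break repair, 5 of end joining, 6 of checkpoint and damage signaling and 4 of nucleotide excision repair. The comparison asked whether the recombination and Fanconi genes differed between the genotypes in the same way as the genes of the other pathways.

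The data comprised 1 library per genotype, both from C57BL/6 mice. FABP7 KO mice lack the gene in all tissues, and the sample labels call this sample a knockout in the title and a knockdown in the genotype field. The mice were males of 6 to 8 weeks. All mice received 500000 MC38 cells, a mouse colon carcinoma line, in 100 µl by injection into the spleen, and liver macrophages were taken on day 10 by positive selection for F4/80, so both groups carried tumor and neither library is a tumor-free control. How many mice were pooled, if any, was not stated for either library. Values are FPKM, fragments scaled to gene length and to sequencing depth, so levels can be set side by side between genes. With 1 library per genotype there is no replicate check and no p-value, and every difference below is one between these 2 libraries.

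Cells repair DNA by several routes. Homologous recombination copies the intact sister chromatid to mend a break across both strands and works after the DNA has been replicated. The Fanconi anemia proteins unhook crosslinks between the strands and hand the break over to recombination. Mismatch repair corrects copying errors behind the replication fork. Base excision and nucleotide excision repair remove damaged bases in cells that divide and in cells that do not, and end joining religates broken ends without a template. Checkpoint kinases and p53 hold the cell cycle while damage lasts. Resident liver macrophages, the Kupffer cells, can divide in the tissue.

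Recombination and Fanconi genes made up 11 of the 13 repair genes that were at least 2-fold lower in FABP7 KO macrophages. Of the 23 genes in these 2 pathways, 22 reached 1 FPKM in at least 1 library, 11 of those were at least 2-fold lower in KO than in WT macrophages and 0 were at least 2-fold higher. Of the 26 genes of the other pathways, all of which reached 1 FPKM, 2 were at least 2-fold lower, the DNA glycosylase Neil3 and the checkpoint kinase Chek1, and 0 were at least 2-fold higher. A gene was called lower or higher when its log2 ratio of FPKM + 1, KO over WT, reached 1 in either direction, and this rule concerns size alone, since no test was possible. Over all 10770 genes at 1 FPKM or more in a library, 2.95% were lower by this rule and 2.21% were higher. Among the recombination and Fanconi genes 50% were lower, and among the others 7.69%. The median log2 ratio was -1.02 in the first group and -0.34 in the second, against 0.004 for all measured genes. Among the 9529 measured genes whose mean lay within the range of the repair genes, 3.10% were lower. Of the 48 repair genes at 1 FPKM or more, 39 had a ratio below 0 and 9 above 0, against 49.5% below 0 over all measured genes. Smaller differences were thus not confined to 2 pathways. Ratios lay below 0 for 20 of 22 recombination and Fanconi genes and for 19 of 26 others. The remaining gene, Xrcc2, which assists strand invasion, stood at 0.66 FPKM in WT against 0.79 FPKM in KO macrophages.

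**Figure D1:**
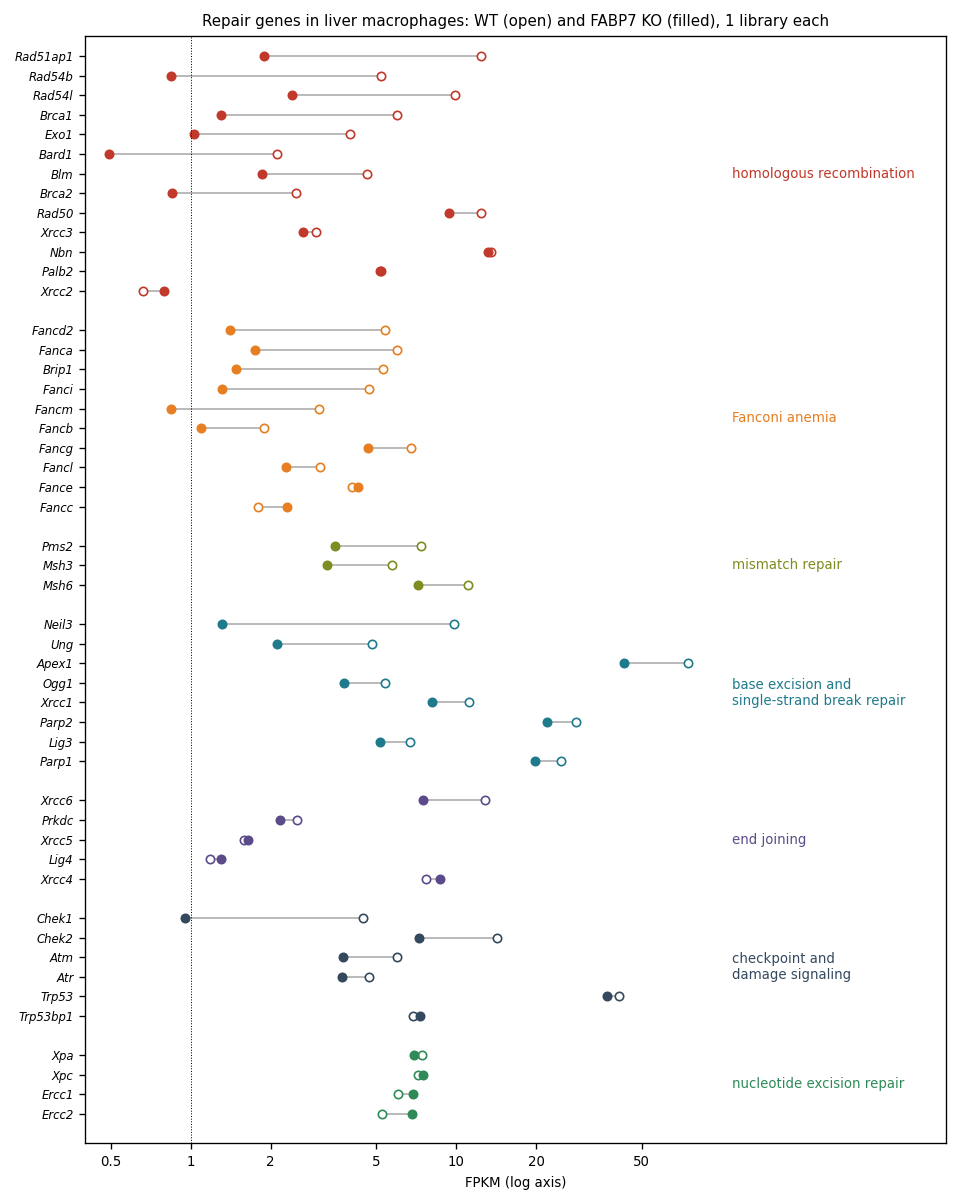
FPKM (log axis) of each of the 49 repair genes in the WT library (open circles) and the FABP7 KO library (filled circles), grouped by pathway and ordered by ratio, with 1 library per genotype and a dotted line at 1 FPKM. The long lines to the left belong to recombination and Fanconi genes and to Neil3 and Chek1, whereas the nucleotide excision repair genes lie between 5.24 and 7.5 FPKM in both libraries.

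Promoter sequence was a feature that had no part in the choice of the genes. RefSeq windows of 300 bases (GRCm38.p6), from 250 before the annotated start to 50 from the start on, matched 41 of the 49 genes by symbol. They were searched on both strands for 4 forms of the motif of the E2F cell cycle factors. These are spelled TTCCCGC in the first form, TTCGCGC in the second form, TTGCCGC in the third form and TTGGCGC in the last. The search also covered the letters CCAAT and the letters TTTGAA, a core found in promoters of G2 and mitosis genes. Matches of the E2F forms can overlap each other. A gene was counted when any of its windows held the letters. E2F letters were in the windows of 22 of 41 repair genes (53.7%), against 19.9% of the 8570 measured genes with a window and 10.9% of all 27025 genes with a window. The share was 58.8% in recombination and Fanconi genes (10 of 17 with a window) and 50% in the other repair genes (12 of 24). By pathway it ranged from 1 of 8 base excision genes to 3 of 3 mismatch repair genes. No window matched Exo1, Fancd2, Nbn, Rad50, Rad54b and Xrcc2 of the first group, or Prkdc and Xpc of the second. Only 10 of the genes called lower thus had a window, without Exo1, Fancd2 and Rad54b. CCAAT was in 58.5% of the repair genes, 43.2% of measured genes and 41.1% of all genes with a window. TTTGAA was in 2.44% of the repair genes, 1 gene, Bard1, against 14.7% of measured genes and 20.2% of all genes with a window.

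Divided at the median log2 ratio of the repair genes, -0.46, a division made after the values were seen, 17 of 21 genes below the median held E2F letters (81.0%) and 5 of 20 above it (25.0%). At the same value, 30.1% of 1021 measured genes below and 18.5% of 7549 above held them. The median GC content of the windows was 58.3% below and 59.2% above the median among the repair genes. Neil3, Rad54l, Fanca and Ung were the 4 genes below the median without E2F letters, and Fancg, Lig4, Xrcc4, Ercc1 and Ercc2 were the 5 above it that held them. These are matches of letters, and whether a factor binds there was not measured.

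Windows of 60 bases, 30 before the start and 30 from it on, are given here for the 7 genes below the median whose E2F letters lie close to the start, and for Palb2 and Xrcc3, recombination genes near even that had no E2F match. Capitals mark the E2F letters, on either strand.
Rad51ap1, chr6:126939558-126939617, minus strand: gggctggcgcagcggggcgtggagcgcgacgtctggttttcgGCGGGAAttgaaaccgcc
Brca1, chr11:101551926-101551985, minus strand: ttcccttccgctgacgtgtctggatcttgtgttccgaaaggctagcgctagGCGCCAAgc
Brip1, chr11:86201164-86201223, minus strand: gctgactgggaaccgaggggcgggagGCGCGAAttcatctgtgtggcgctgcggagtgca
Fanci, chr7:79392308-79392367, plus strand: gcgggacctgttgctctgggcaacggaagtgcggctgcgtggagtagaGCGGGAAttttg
Pms2, chr5:143909971-143910030, plus strand: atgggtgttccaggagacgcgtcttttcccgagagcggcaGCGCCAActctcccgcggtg
Msh6, chr17:87975020-87975079, plus strand: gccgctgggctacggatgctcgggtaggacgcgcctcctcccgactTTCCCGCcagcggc
Atm, chr9:53536642-53536701, minus strand: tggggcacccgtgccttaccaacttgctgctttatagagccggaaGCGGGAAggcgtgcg
Palb2, chr7:122132917-122132976, minus strand: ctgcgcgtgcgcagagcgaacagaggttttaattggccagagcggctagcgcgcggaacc
Xrcc3, chr12:111813850-111813909, minus strand: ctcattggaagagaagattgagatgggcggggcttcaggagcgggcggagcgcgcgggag
In Rad51ap1, Fanci and Atm the marked run is the reverse complement of the first form, which Msh6 carries on the sense strand. In Brca1 and Pms2 it is the reverse complement of the last form, and in Brip1 that of the second form, which spans the start itself.

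**Figure D2:**
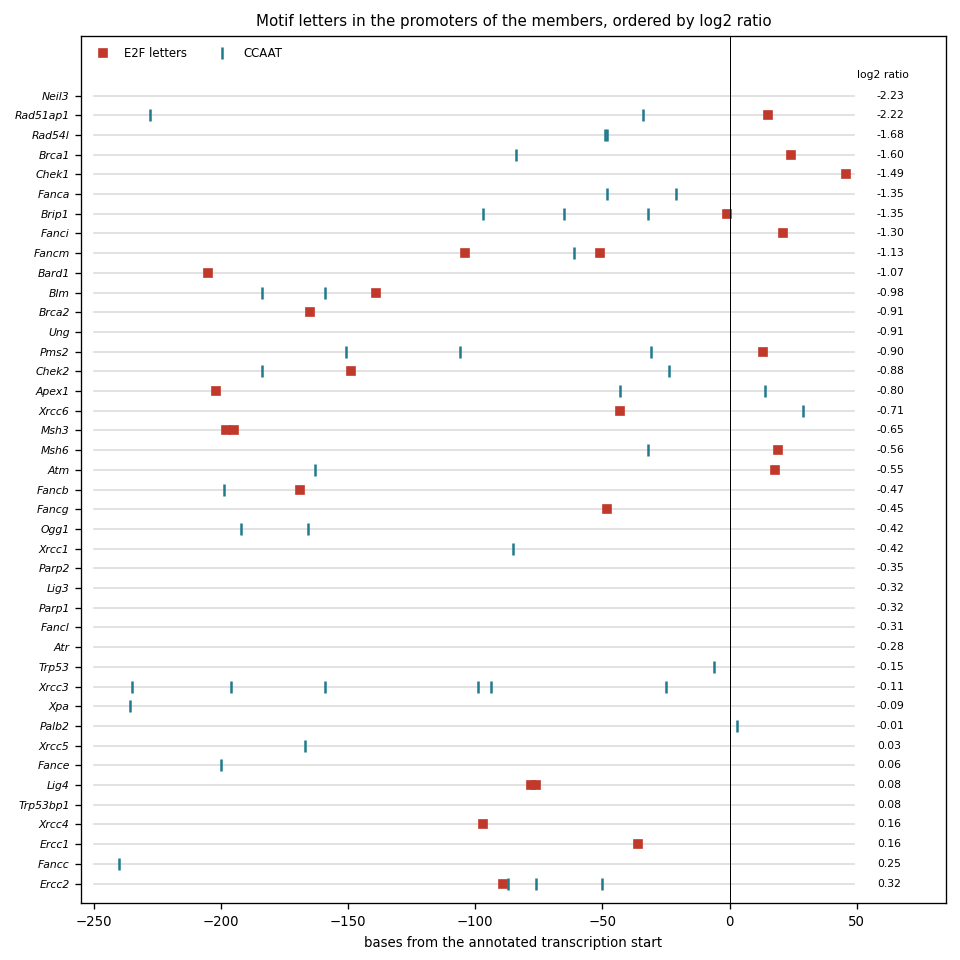
Positions of E2F letters (red squares) and CCAAT (blue ticks) in bases from the annotated start (x axis) for the 41 repair genes with a promoter window, ordered from the lowest log2 ratio at the top to the highest at the bottom, with the ratio at the right. Most genes down to Fancg at -0.45 carry red squares, which reappear in Lig4, Xrcc4, Ercc1 and Ercc2.

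Among the recombination genes, Rad51ap1, Rad54b and Rad54l had the lowest ratios. Rad51ap1 (ENSMUSG00000030346), which stimulates strand invasion, was at 12.5 FPKM in WT against 1.88 FPKM in KO macrophages, 6.63-fold lower by the FPKM themselves. Rad54b (ENSMUSG00000078773), a DNA translocase, was at 5.22 and 0.84 FPKM. Rad54l, the related translocase that remodels chromatin at the invading strand, was at 9.89 and 2.40 FPKM. The log2 ratios of these 3 genes, taken on FPKM + 1, were -2.22, -1.76 and -1.68. Brca1, Bard1 and Exo1 were also called lower. Brca1 (ENSMUSG00000017146), which promotes resection of the ends, was at 5.96 FPKM in WT against 1.30 FPKM in KO macrophages. Its partner in the BRCA1 ubiquitin ligase, Bard1, was at 2.12 and 0.49 FPKM. The nuclease Exo1, which resects ends and also serves mismatch repair, was at 3.99 and 1.03 FPKM. Brca1, Bard1 and Exo1 had log2 ratios of -1.60, -1.07 and -1.30, so 6 of the 12 measured recombination genes were called lower. Just short of the rule were Blm, the helicase that dissolves crossed strands, and Brca2, which acts at the resected ends. Blm was at 4.62 FPKM in WT against 1.85 FPKM in KO macrophages, with a log2 ratio of -0.98. Brca2 was at 2.48 and 0.85 FPKM, with a ratio of -0.91. Without a pseudocount, which pulls the ratios of low genes towards 0, these became -1.32 for Blm and -1.54 for Brca2.

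The other recombination genes were closer to even. Nbn and Rad50, subunits of the complex that first senses a break, differed little or modestly. Nbn was at 13.6 FPKM in WT against 13.2 FPKM in KO macrophages, and Rad50 at 12.4 and 9.40 FPKM, with log2 ratios of -0.04 and -0.36. Palb2, which bridges BRCA1 and BRCA2, was at 5.22 FPKM in WT against 5.18 FPKM in KO macrophages. Its ratio of -0.01 stood apart from the ratios of both its partners. Xrcc3, which like Xrcc2 assists strand invasion, was at 2.95 and 2.65 FPKM, a ratio of -0.11.

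Of the 10 Fanconi genes, 5 were called lower, 3 had ratios below 0 that fell short of the rule and 2 had ratios above 0. Fancd2 and Fanci encode the pair of proteins that is ubiquitinated at a crosslink. Fancd2 (ENSMUSG00000034023) was at 5.38 FPKM in WT against 1.41 FPKM in KO macrophages, and Fanci (ENSMUSG00000039187) was at 4.69 and 1.31 FPKM. Both were more than 3-fold lower by the FPKM themselves, with log2 ratios of FPKM + 1 of -1.40 and -1.30. The helicase Brip1, a partner of BRCA1, was at 5.30 and 1.48 FPKM, a ratio of -1.35. Within the core complex, which attaches the ubiquitin, the subunits were not alike. Fanca was at 6.00 FPKM in WT against 1.74 FPKM in KO macrophages, and Fancm, the translocase that anchors the complex on DNA, at 3.04 and 0.84 FPKM. Fanca and Fancm were called lower, at -1.35 and -1.13. Fancg was at 6.73 and 4.64 FPKM, Fancb at 1.89 and 1.09 FPKM, and Fancl, the ubiquitin ligase subunit, at 3.07 and 2.29 FPKM. These 3 subunits had ratios of -0.45, -0.47 and -0.31 and were not called. Fance was at 4.04 FPKM in WT against 4.27 FPKM in KO macrophages, and Fancc at 1.79 and 2.31 FPKM, the 2 Fanconi genes above 0.

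None of the 3 mismatch repair genes was called, although all 3 had lower values in KO macrophages. Pms2, an endonuclease subunit, was at 7.35 FPKM in WT against 3.49 FPKM in KO macrophages, with a log2 ratio of -0.90. Msh3 was at 5.72 and 3.27 FPKM, and Msh6 at 11.1 and 7.15 FPKM. Msh3 and Msh6 belong to the sensors that recognize loops and mispaired bases, and their ratios were -0.65 and -0.56.

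All 8 genes of base excision and single-strand break repair had ratios below 0, but only Neil3 was called. Neil3 (ENSMUSG00000039396), a glycosylase known from dividing cells that also unhooks crosslinks, was at 9.80 FPKM in WT against 1.31 FPKM in KO macrophages. This was 7.48-fold lower by the FPKM themselves, with a log2 ratio of FPKM + 1 of -2.23, the lowest of the 49 genes. Ung, which removes uracil from DNA, was at 4.83 and 2.11 FPKM, a ratio of -0.91. Ogg1, the glycosylase for oxidized guanine, was at 5.41 and 3.78 FPKM, a ratio of -0.42. Apex1, the endonuclease that cuts the emptied site, had the highest level of all 49 genes, at 75.1 FPKM in WT against 42.8 FPKM in KO macrophages. Its ratio of -0.80 was the third lowest of the pathway. The strand break sensors Parp1 and Parp2 and the ligation factors Xrcc1 and Lig3 lay together at ratios of -0.32 to -0.42. Parp1 was at 24.9 and 19.8 FPKM, Parp2 at 28.4 and 22.0 FPKM, Xrcc1 at 11.2 and 8.13 FPKM and Lig3 at 6.71 and 5.17 FPKM.

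End joining and nucleotide excision repair genes were near even. The end joining median was 0.03. Xrcc6, the 70-kDa Ku subunit that caps broken ends, was the exception at 12.9 FPKM in WT against 7.47 FPKM in KO macrophages, a log2 ratio of -0.71. Its partner Xrcc5 was at 1.58 and 1.64 FPKM. The kinase Prkdc, which Ku recruits, was at 2.51 and 2.16 FPKM, and the ligase Lig4 with its cofactor Xrcc4 stood at 1.18 and 1.30 FPKM and at 7.71 and 8.70 FPKM. The nucleotide excision median was 0.11. Xpc, which finds the lesion, was at 7.19 FPKM in WT against 7.5 FPKM in KO macrophages, and Xpa, which verifies it, at 7.46 and 6.96 FPKM. The nuclease subunit Ercc1 was at 6.04 and 6.87 FPKM. The helicase Ercc2 was at 5.24 and 6.79 FPKM, the highest ratio of the 49 genes, at 0.32.

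Checkpoint genes ranged from Chek1, which was called lower, to Trp53bp1, with a ratio just above 0. Chek1 (ENSMUSG00000032113), the kinase that answers stalled replication, was at 4.47 FPKM in WT against 0.95 FPKM in KO macrophages, 4.71-fold lower by the FPKM themselves. Chek2, the kinase that answers breaks, was at 14.2 and 7.27 FPKM, a log2 ratio of -0.88. The upstream kinases differed less, with Atm at 5.96 and 3.75 FPKM and Atr at 4.70 and 3.70 FPKM. Trp53, the gene of p53, was at 41.3 FPKM in WT against 37.2 FPKM in KO macrophages, a ratio of -0.15. Trp53bp1, which protects ends from resection, was at 6.86 and 7.32 FPKM, a ratio of 0.08.

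**Figure D3:**
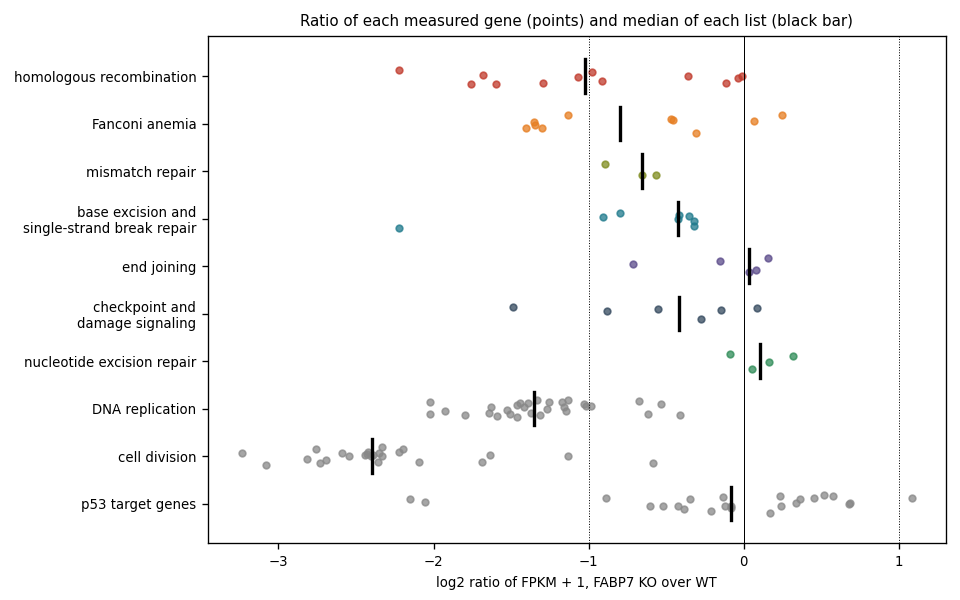
KO over WT log2 ratio, taken on FPKM + 1 (x axis), of the measured genes (1 point per gene) in the 7 repair pathways and among DNA replication, cell division and p53 target genes, with the median of each list (black bar) and dotted lines at the 2-fold rule. The recombination median lies at -1.02 and the nucleotide excision median at 0.11, and the cell division median lies furthest left at -2.40.

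Counting error was estimated for each repair gene. The steps between low values gave depths of about 18100000 fragments for the WT and 18000000 for the KO library, and from these and the length of the longest coding transcript each repair gene rested on an estimated 38.8 to 1748 fragments per library. Exact 95% intervals (Clopper-Pearson, from these estimated fragments) were taken of the log2 ratio without a pseudocount. They cover counting error only and not the spread between mice. By these intervals, all 13 genes called lower lay wholly below a log2 ratio of -1. The 13 genes had been picked for ratios of -1 or lower on FPKM + 1. Without a pseudocount each of them lies further from 0, so this count is no separate check of the calls. Over the 49 genes, 35 intervals lay below 0, 13 held 0 and 1 lay above 0. The 35 comprised 17 of 23 recombination and Fanconi genes and 18 of 26 genes of the other pathways. Intervals were not computed over all measured genes, so these counts have no background share. Small differences also cleared 0, such as that of Trp53, from -0.26 to -0.04. The single one above 0 was that of Ercc2, from 0.17 to 0.58. By pathway, the interval lay below 0 for 9 of 13 recombination genes, 8 of 10 Fanconi genes, all 3 mismatch repair and all 8 base excision genes, 5 of 6 checkpoint genes, 2 of 5 end joining genes and 0 of 4 nucleotide excision genes. For Rad51ap1 the interval ran from -3.09 to -2.37 and for Neil3 from -3.35 to -2.49, around ratios without a pseudocount of -2.73 and -2.90. For Palb2 it ran from -0.23 to 0.21 and for Nbn from -0.21 to 0.12, so a 2-fold difference in either direction lay outside the counting error of both.

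**Figure D4:**
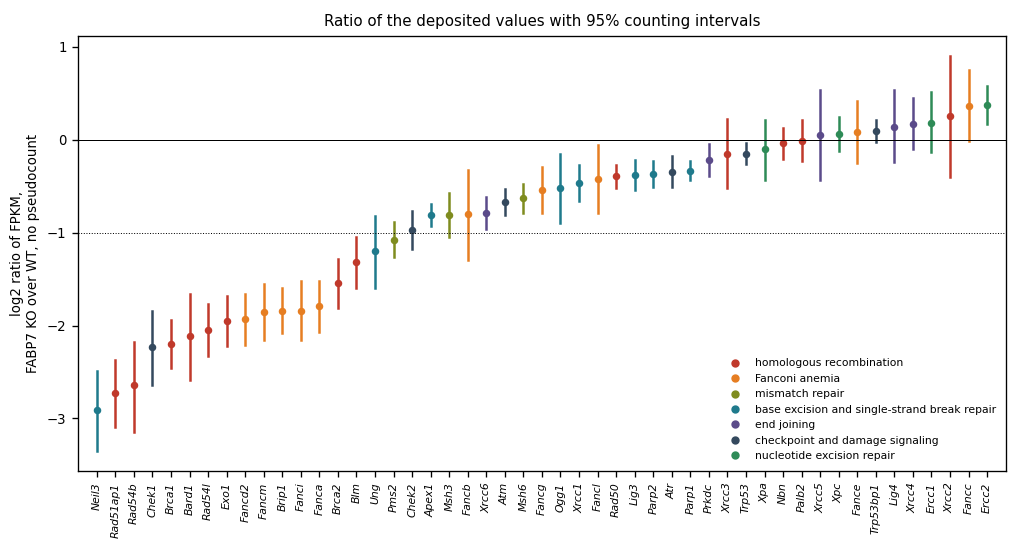
KO over WT log2 ratio of the deposited values without a pseudocount (y axis), for each of the 49 repair genes ordered by ratio (points), with exact 95% counting intervals (vertical lines) and a dotted line at -1. Intervals are colored by pathway, and they cover counting error only. Neil3 lies furthest down and Ercc2, at the right, is the one gene whose interval lies above 0.

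Repair genes outside the 49 were called lower more often than all genes, at 16.4%, and not mainly in recombination and Fanconi pathways. The share was 18.5% of recombination partners (median -0.35) and 21.4% of Fanconi partners (median -0.18). It was 46.2% for mismatch repair, 32.0% for checkpoint, 9.09% for end joining, 5.26% for base excision and 0% for nucleotide excision partners. Of 151 further genes of these pathways and of translesion synthesis and direct reversal, 146 were measured, 24 were at least 2-fold lower and 0 higher, with a median log2 ratio of -0.21, against 2.95% lower and a median of 0.004 over all measured genes. Among 27 measured recombination partners, 5 were lower, including the nuclease subunit Eme1 at 3.21 FPKM in WT against 0.50 FPKM in KO macrophages, the resolvase Gen1 at 4.0 and 0.79 FPKM and the single-strand binding subunit Rpa2 at 11.8 and 4.02 FPKM. The resection factor Rbbp8, the partner with the highest mean, was at 43.7 and 38.0 FPKM. Among 14 measured Fanconi partners, 3 were lower. They were the ubiquitin-conjugating enzyme Ube2t at 4.22 and 1.40 FPKM, the deubiquitinase Usp1 at 41.4 and 18.4 FPKM and Cenps at 4.79 and 1.75 FPKM. The nuclease Fan1, at 2.84 and 3.59 FPKM, and Ercc4, at 4.36 and 5.45 FPKM, had ratios above 0.

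The partners of mismatch repair are in large part replication factors, and 6 of 13 were lower, with a median of -0.76. The ligase Lig1 was at 48.5 FPKM in WT against 18.2 FPKM in KO macrophages, and the clamp loader subunit Rfc4 at 12.2 and 3.26 FPKM. The sliding clamp Pcna was at 159 and 77.4 FPKM. Of 25 checkpoint partners, 8 were lower, with Clspn, which passes the signal from ATR to CHK1, at 10.1 and 1.69 FPKM and the phosphatase Cdc25c at 2.89 and 0.20 FPKM. H2afx, the histone that is phosphorylated at breaks, was at 26.2 and 7.76 FPKM. By contrast Mdm4, an inhibitor of p53, was at 23.5 and 29.9 FPKM.

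Among 19 base excision partners only the flap nuclease Fen1 was lower, at 24.8 FPKM in WT against 10.8 FPKM in KO macrophages. Hmgb1, whose near-identical pseudogene copies can share its reads, was at 256 and 134 FPKM. The glycosylases Neil2, at 0.46 and 1.37 FPKM, and Smug1, at 1.35 and 2.76 FPKM, had the highest ratios of all the partners, at 0.70 and 0.68. Their counting intervals, from 0.75 to 2.51 and from 0.67 to 1.40 without a pseudocount, lay above 0, whereas that of Neil3 lay below it. Among 11 measured end joining partners only Polq, the polymerase of the alternative route that joins ends by short matches, was lower, at 2.67 and 0.63 FPKM. The nuclease Dclre1c was at 18.5 and 20.9 FPKM. None of the 23 nucleotide excision partners was called, with Ddb1 at 68.3 and 54.0 FPKM, and none of the 15 genes of translesion synthesis and direct reversal, with the dNTP hydrolase Samhd1 at 391 and 348 FPKM and Rad18, which marks stalled forks, at 4.61 and 2.27 FPKM.

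Target genes of p53 did not move together. Of 24 measured targets of 30 listed, 2 were at least 2-fold lower (8.33%), 1 was higher (4.17%) and the median was -0.08. Over all measured genes 2.95% were lower and 2.21% higher, and counts this small cannot be told from those shares. The lower ones were Ckap2, a spindle protein, at 7.92 FPKM in WT against 1.01 FPKM in KO macrophages, and the stress gene Ddit4 at 29.0 and 6.24 FPKM. Trp53i11 was higher, at 1.47 and 4.24 FPKM. The cell cycle inhibitor Cdkn1a was at 20.6 and 10.7 FPKM, a ratio of -0.89, and the death effector Bax at 47.7 and 36.2 FPKM.

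Most cell division and replication genes were lower in KO macrophages. The size rule called 23 of 24 cell division genes lower (median log2 ratio -2.40) and 25 of 30 replication genes (median -1.35), against 2.95% of all measured genes. The replication list shares Pcna, Pold1, Rfc3, Rfc4 and Rfc5 with the mismatch repair partners. Mki67, a marker of cycling cells, was at 44.3 FPKM in WT against 7.85 FPKM in KO macrophages. The recombination and Fanconi median of -1.02 lay between the replication median and that of all measured genes. In bulk RNA, fewer dividing cells and less RNA of these genes per cell cannot be told apart, and the part of cell division in the repair gene values was not tested.

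As a check of the labels, Fabp7 had 354 FPKM in WT against 0.69 FPKM in KO macrophages. Markers of macrophages and Kupffer cells were abundant in both, with 0 of 13 and 0 of 8 at least 2-fold lower, 1 and 0 higher, and summed levels of 15275 and 18535 FPKM and of 13512 and 14752 FPKM. Markers of other cells were higher in KO, with 5 of 16 hepatocyte markers called (summed at 630 and 1258 FPKM), 10 of 12 sinusoidal endothelial markers (136 and 293 FPKM), 6 of 7 measured neutrophil markers (39.1 and 111 FPKM), 2 of 4 measured B cell markers (13.5 and 32.7 FPKM) and 4 of 5 measured erythroid markers (27.7 and 68.8 FPKM). Of 8 monocyte markers 7 were measured and 1 was lower, Plac8. The median log2 ratio of the 7 was -0.07, with 4 below 0 and 3 above, so the list did not move together. The 8 summed to 951 and 460 FPKM, but with a median of 6.03 FPKM in WT the sum rests on the more abundant markers. The T and NK cell markers summed to 14.2 and 12.7 FPKM, with 1 of 5 measured ones lower, Gzmb. The part of these cells in the repair gene values was not tested. For comparison, 2.95% of all measured genes were called lower and 2.21% higher. The 11 epithelial markers, which a carry-over of MC38 cells could bring, summed to 7.67 and 7.76 FPKM, and 4 of them reached 1 FPKM, with 0 called in either direction. Krt18 was highest, at 3.38 and 2.48 FPKM, whereas Cdx2 and Elf3 were at 0 in both libraries and Epcam was at 0 and 0.13 FPKM. The levels of these markers in MC38 cells were not measured here, so their sums do not gauge MC38 RNA.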

How the data were processed

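mRNA of liver macrophages was sequenced in 1 WT and 1 FABP7 KO library after poly(A) selection. The authors deposited FPKM values with 2 decimals. TopHat2 2.1.1 and Bowtie2 2.2.8 are the aligners in the submitters' processing notes. The sources used here give no build, annotation, strand setting or counter, so the treatment of shared or overlapping reads is unknown. Symbols came from GENCODE M21 by gene ID for 22267 of 22322 genes. Coordinates belong to the RefSeq windows alone.

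Log2 ratios used a pseudocount of 1 FPKM and genes at 1 FPKM or more in a library, and a 2-fold size rule took the place of a test. Depth was estimated from low values of single-transcript genes of 300 to 1200 bases, of which 88.1% (135 values, WT) and 92.4% (118 values, KO) lay within 0.15 of a whole fragment, where chance gives 30.0%. Longest coding transcripts gave 74.0% and 74.2% for genes with several transcripts. Scripts were tested on simulated data. The genes and lists were chosen with earlier results of these data known. Named partners were those with the largest ratios or highest means of each list, and not all are printed. Some genes of the lists are counted in the sums but not named. Python 3.11.15, NumPy 2.4.6, pandas 2.3.3, SciPy 1.17.1 and Matplotlib 3.10.9 were used.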

Additional observations from a re-analysis of the deposited data

How the results depend on the processing

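The recombination and Fanconi median stayed below that of the other repair genes under every alternative run, at -1.59 to -0.98 against -0.39 to -0.30. Without a floor on low values, which adds Xrcc2, the recombination median and the joint median were -0.98, short of the rule, and so was the recombination median with Exo1 counted under mismatch repair (-0.98). The Fanconi median reached the limit at -1.24 when 0.1 was the pseudocount. It was -1.35 when only genes at 5 FPKM or more were kept, where the median of mismatch repair partners was -1.02 and that of end joining -0.28 instead of 0.03. The number of repair genes called lower was 17 with a pseudocount of 0.1 or none (the latter chosen after seeing the data), 8 with a floor of 5 FPKM and 21 at 1.5-fold. Of these, 7 were recombination or Fanconi genes and 1 another gene with the floor of 5 FPKM, and other genes numbered 4 with a pseudocount of 0.1 and 8 at 1.5-fold. Over all genes, 318 of 10770 were lower and 238 higher by the main rule. With a pseudocount of 0.1 these numbers were 444 and 562, and at 1.5-fold 804 and 873, among the same 10770 genes. With a floor of 5 FPKM, which leaves fewer genes, they were 232 and 143. Without a pseudocount no number over all genes was taken. Fewer genes tested, a smaller pseudocount or a lower limit accounts for these changes over all genes by construction. Dividing the KO values by 0.974, the median KO over WT value among genes at or above 10 FPKM, left 13 repair genes lower and turned Palb2 to 0.02. In windows of 150 bases, E2F letters were in 35.3% of recombination and Fanconi genes, 37.5% of the others and 6.49% of all genes with a window. No repair gene called lower changed direction. No paired analysis was possible because each genotype has 1 library. Depth limits the genes with the fewest fragments most, such as Xrcc2 (38.8 in WT) and Xrcc5 (73.1).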

Other observations

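The Ku subunits, which act as a pair of one Xrcc5 and one Xrcc6 protein, had unequal mRNA levels per length in both libraries, with Xrcc6 at 8.15 times Xrcc5 in WT and 4.55 times in KO macrophages. Among the Neil glycosylases for oxidized bases, Neil3 was at 9.80 and 1.31 FPKM, Neil2 at 0.46 and 1.37 FPKM and Neil1 at 4.14 and 4.98 FPKM. Neil3 was thus the highest of them in the WT library and Neil1 in the KO library, where Neil2 and Neil3 were close. Neil2 rested on only an estimated 16.1 fragments in WT and 47.6 in KO macrophages. E2f1, an activator of cell cycle genes, had the ratio nearest 0 of the cell division list, -0.58, at 14.4 and 9.27 FPKM.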
